A study of Oryza sativa with 4 samples.

Results

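Jasmonates are lipid hormones of plants that act in wounding, defence, fertility and, in rice, the opening of florets. Their synthesis starts in the plastid. Plastid lipoxygenases (LOX) oxidise linolenic acid, allene oxide synthase (AOS) turns the hydroperoxide into an unstable epoxide, and allene oxide cyclase (AOC) closes the ring to give OPDA (oxo-phytodienoic acid). In the peroxisome an OPDA reductase (OPR) and rounds of beta-oxidation yield jasmonic acid, which JAR1 joins to isoleucine in the cytosol to make the form that the receptor COI1 binds. The genes described here are 9 of the 37858 genes listed in the table, picked by RAP identifier (Rice Annotation Project) and ordered by these steps. They are the LOX genes Os08g0508800, Os08g0509100 and Os12g0559200, AOS1 (Os03g0767000), AOS2 (Os03g0225900), AOC (Os03g0438100, the gene that the study names OsAOC1), OPR7 (Os08g0459600), OPR1 (Os06g0216300) and JAR1 (Os05g0586200).

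RNA-seq was performed on fully developed leaves of "Nipponbare" rice taken at 55 d after sowing, from 2 HDS plants and 2 CS plants. HDS plants were grown from heat-developed seeds, kept at 30 °C during grain filling on the mother plant, and CS plants from control seeds kept at 25 °C. Both treatments were grown under the same natural conditions with no heat of their own, and no transgene or mutation is named for either. Jasmonate genes were measured by the study with RT-qPCR in lodicules, another method and organ. The comparison below is only of HDS with CS plants, in leaves.

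The expected counts of reads per gene summed to between 15444235 and 17298384 per library. Levels are given as CPM, the reads of a gene relative to all reads of its library, with libraries scaled by edgeR's TMM method. A gene is called higher or lower where it meets the criteria of the study, an unadjusted P under 0.05 by edgeR's exact test and a log2 fold change, HDS over CS, of at least 0.37 in either direction. The listed leaf genes were abundant (5 photosynthesis genes with a summed level of 14017 and 16236 CPM in HDS plants, against 25704 and 15627 CPM in CS plants), whereas 2 of 3 listed root genes and 2 of 3 listed meristem and panicle genes had 0 counts in all 4 libraries. The remaining root gene, Os02g0745100, had 4.6 and 3.6 CPM in HDS plants, against 3.2 and 4.8 CPM in CS plants. The remaining panicle gene, Os03g0215400, had 2.5 and 3.8 CPM in HDS plants, against 2.5 and 3.1 CPM in CS plants. In a leaf, fewer cells of a type and less RNA per cell cannot be told apart. The filterByExpr function of edgeR, which drops low counts, kept all 9 genes.

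Of the 9 genes, 2 were higher in HDS plants, namely OPR1 and JAR1, and 0 were lower. Over all 29698 genes tested, 7.88% met the same criteria, 4.18% higher and 3.70% lower, and among the genes kept by filterByExpr 9.15% met them, 4.67% higher. The other 7 genes had log2 fold changes between -0.42 (AOS2) and 0.56 (LOX Os12g0559200). With Benjamini-Hochberg adjustment over all genes, the exact test left 1 of the 9 genes, OPR1, against 2.38% of all genes. In the quasi-likelihood test of edgeR, 0 of the 9 had an adjusted P under 0.05, against 0.699% of all genes kept, while 2 had an unadjusted P under 0.05, against 9.23%. DESeq2 with the criteria of the study gave 3, for which no share of all genes was taken. The median log2 fold change of the 9 genes was 0.31, and that of all genes kept was 0.01. In 5 of the 9 genes the libraries did not overlap, with HDS above CS in 4 and below in 1. Over all genes kept, 40.5% did not overlap, 21.2% with HDS above and 19.3% with HDS below.

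**Figure D1:**
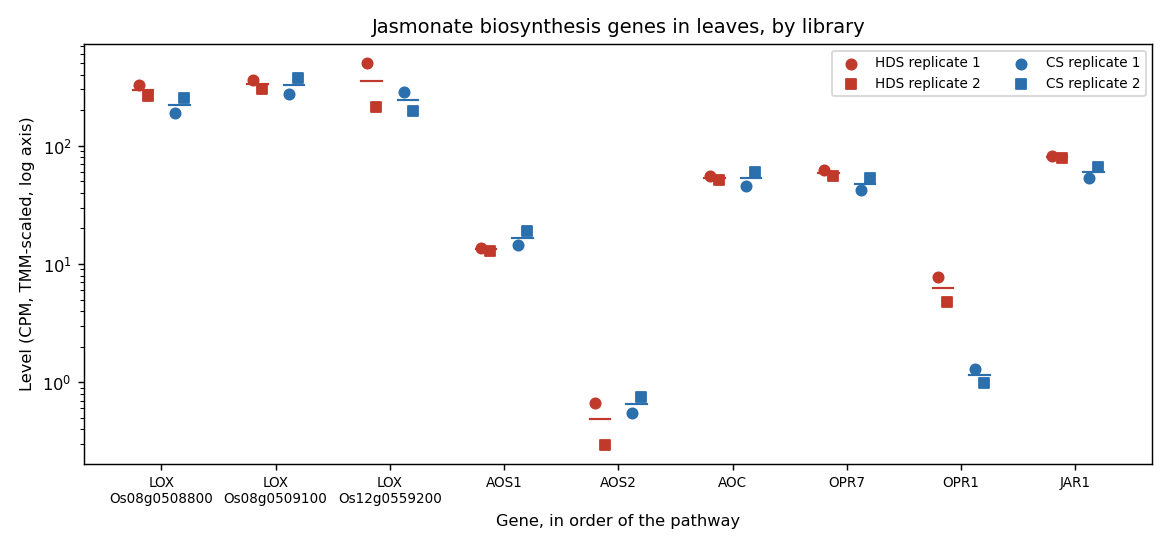
Level of each of the 9 genes in CPM on a log axis, in pathway order. Points are libraries, circles replicate 1 and squares replicate 2, red HDS and blue CS, and bars are the means of 2 libraries. OPR1 is the gene whose treatments stand far apart, at 7.77 and 4.81 CPM in HDS plants and 1.3 and 0.980 CPM in CS plants, while AOC in HDS plants lies between its CS replicates.

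The first step is carried by LOX enzymes of the plastid. LOX Os08g0508800 had 330 and 265 CPM in HDS plants, against 191 and 253 CPM in CS plants. The treatments did not overlap, but HDS replicate 2 was near CS replicate 2. HDS exceeded CS by a log2 fold change of 0.42 (standard error 0.26, n = 2 each) and was not called. In edgeR's exact test P was 0.0569, and 0.669 after adjustment. It met the criteria without CS replicate 2, at 0.62, and on all 4 libraries with DESeq2 (0.41, P = 0.0447) and with scaling by total counts in edgeR's exact test (0.49, P = 0.0456).

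Its neighbour LOX Os08g0509100, the next gene listed on chromosome 8, had 362 and 301 CPM in HDS plants, against 274 and 378 CPM in CS plants. Both HDS libraries lay between the CS libraries, and the log2 fold change was 0.02 (standard error 0.27). This value changed sign with the library left out, to -0.12 without HDS replicate 1 and -0.19 without CS replicate 1.

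RSEM, the program with which the counts were made, splits a read between the genes it could come from. The counts of these neighbours are not whole in any library but add up to whole numbers in all 4, to 12374 and 9532 reads in HDS plants, against 6794 and 10943 reads in CS plants. Reads were therefore divided between these genes, and their sum does not depend on the division. Summed, the log2 fold change was 0.20 (standard error 0.26, exact P = 0.382 by edgeR). Within the sum, Os08g0508800 held 47.7% of the reads in HDS replicate 1 (95% Wilson interval 46.8 to 48.6%) and 46.8% in HDS replicate 2 (45.8 to 47.8%). In CS plants it held 41.0% (39.9 to 42.2%) in replicate 1 and 40.0% (39.1 to 41.0%) in replicate 2. The intervals cover counting error only and take the division of reads as given. The share thus differed less between replicates than between treatments, whereas the total of the pair overlapped between treatments.

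**Figure D2:**
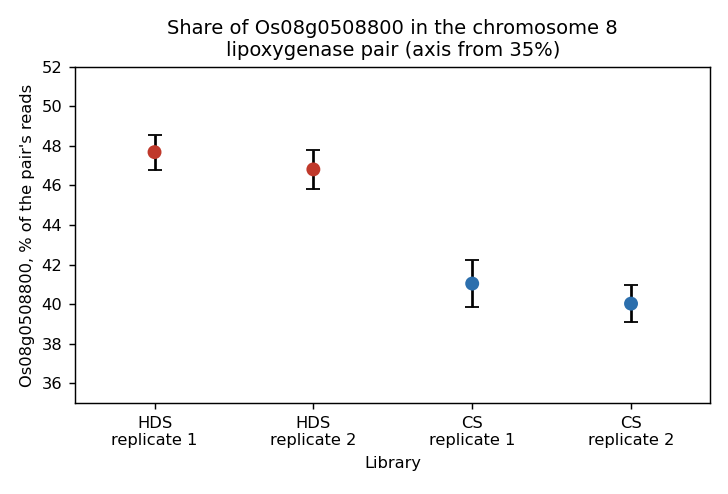
Percent of the reads of the chromosome 8 LOX pair (Os08g0508800 and Os08g0509100) that were given to Os08g0508800, in each library, with 95% Wilson intervals; the axis starts at 35%. The HDS libraries, in red, lie at 47.7% and 46.8%, above the CS libraries, in blue, at 41.0% and 40.0%.

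LOX Os12g0559200 on chromosome 12 had the widest spread between replicates among the LOX genes. It had 502 and 212 CPM in HDS plants, against 288 and 198 CPM in CS plants. HDS replicate 1 stood above the other 3 libraries, and HDS replicate 2 lay between the CS libraries. The log2 fold change of 0.56 (standard error 0.68, exact P = 0.165 by edgeR) was decided by these libraries: it was -0.19 without HDS replicate 1, 1.05 without HDS replicate 2 and 0.85 without CS replicate 1, the last 2 meeting the criteria. Its counts were not whole either, but its neighbour Os12g0559250 held no more than 66.3 reads in any library.

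AOS is the first enzyme committed to jasmonates, and AOS1 is known in rice from the mutant precocious. AOS1 had 13.8 and 13.0 CPM in HDS plants, against 14.4 and 18.9 CPM in CS plants. It was the only one of the 9 genes with both HDS libraries below both CS libraries, by a log2 fold change of -0.32 (standard error 0.20, exact P = 0.236 by edgeR). CS replicate 1 lay near the HDS libraries, and without CS replicate 1 the value was -0.50 and met the criteria. AOS1 shared reads with Os03g0766900, since the counts of these genes add up to whole numbers in all 4 libraries. AOS1 was given 36.4 and 34.1% of their reads in HDS plants, against 38.8 and 48.7% in CS plants. The sum was 37.9 and 38.1 CPM in HDS plants, against 37.2 and 38.8 CPM in CS plants, with a log2 fold change of -0.00031 (standard error 0.03). Os03g0766900 itself was given 431 and 423 reads in HDS plants, against 333 and 345 in CS plants. The part of the division of reads in the value of AOS1 was not tested.

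AOS2 had few reads, with 12 and 5 counts in HDS plants, against 8 and 13 counts in CS plants. The groups overlapped, and the log2 fold change of -0.42 (standard error 0.50, exact P = 0.618 by edgeR) became 0.04 without HDS replicate 2.

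AOC makes OPDA, and rice mutants that lack it are deficient in jasmonate. Its counts were whole, so no reads were divided. AOC had 56.0 and 51.6 CPM in HDS plants, against 46.1 and 60.6 CPM in CS plants, or 53.8 ± 3.10 CPM and 53.3 ± 10.3 CPM (SD, n = 2 each). Both HDS libraries lay between the CS libraries, with a log2 fold change of 0.01 (standard error 0.21, exact P = 0.955 by edgeR, adjusted P = 1). Over the fits that leave out a library it lay between -0.18 and 0.20, on either side of 0 (-0.05 without HDS replicate 1, -0.18 without CS replicate 1). The difference in leaf AOC was smaller than the spread between the CS plants. The genes whose log2 CPM followed AOC most closely over the 4 libraries were Os06g0237200, Os04g0290800 and Os05g0106600, at distances of 0.014, 0.019 and 0.021 log2 units. With so few libraries many genes lie close by, and this is a description only.

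OPR7 is the rice reductase that can replace the jasmonate reductase of Arabidopsis. It had 62.1 and 56.0 CPM in HDS plants, against 42.2 and 53.0 CPM in CS plants. HDS lay above CS by a small margin between HDS replicate 2 and CS replicate 2. The log2 fold change of 0.31 (standard error 0.18, exact P = 0.12 by edgeR) was under the limit of 0.37 and met the criteria only without CS replicate 2, at 0.47.

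OPR1 belongs to another subgroup of the same family, to which no part in jasmonate synthesis is assigned. It had 139 and 80.6 expected counts in HDS plants, against 19.0 and 17.3 in CS plants. This was 6.29 ± 2.09 CPM in HDS plants and 1.14 ± 0.226 CPM in CS plants (SD, n = 2 each). Both HDS libraries stood far above both CS libraries, and HDS replicate 1 was above HDS replicate 2. The level was 5.52-fold higher, a log2 fold change of 2.46 (standard error 0.39). In edgeR's exact test P was 2.8e-07, and 3.8e-05 after adjustment. The quasi-likelihood test of edgeR gave an adjusted P of 0.0677. When a library was left out, the difference stayed between 2.07 and 2.77 and met the criteria each time, but without HDS replicate 1 the adjusted P of the exact test was 0.171. Of the reads divided with OPR1, the neighbouring gene Os06g0216350 was given fewer than 2 in each library. The sum of these genes gave a log2 fold change of 2.40.

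OPR1 lies on chromosome 6 among other genes that were listed as OPR-like. From the first to the last of the 6 listed genes the table holds 12 rows. Of the 6, 4 were higher in HDS plants, OPR1 included (against 4.18% of all genes tested), and 0 lower. Of those called, Os06g0216200, Os06g0215600 and Os06g0215500 had no more than 3 counts in any CS library. They could hardly have been called lower, so the direction of their calls says little. Os06g0216200 had 18 and 12 counts in HDS plants, against 0 in both CS plants, which is at least 4.54-fold higher if 3 counts are allowed in each CS library. Os06g0215600 had 22 and 17 counts in HDS plants, against 0 and 3 in CS plants, a ratio of 12.0 for the summed counts per depth (95% interval 3.8 to 60.5, counting error only). The adjusted P of edgeR's exact test was 0.0013 for Os06g0216200 and 0.0148 for Os06g0215600, and those of the quasi-likelihood test were 0.145 and 0.256. Os06g0215500 had 8 and 4 counts in HDS plants, against 1 and 0 in CS plants, and lost its call when any library was left out. The most abundant listed neighbour, Os06g0215900, named after its values were seen, had 200 and 140 counts in HDS plants, against 93 and 185 in CS plants, and overlapped between treatments (log2 fold change 0.19). Of the 6 other rows within the stretch, 0 were called and none had more than 3 counts.

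**Figure D3:**
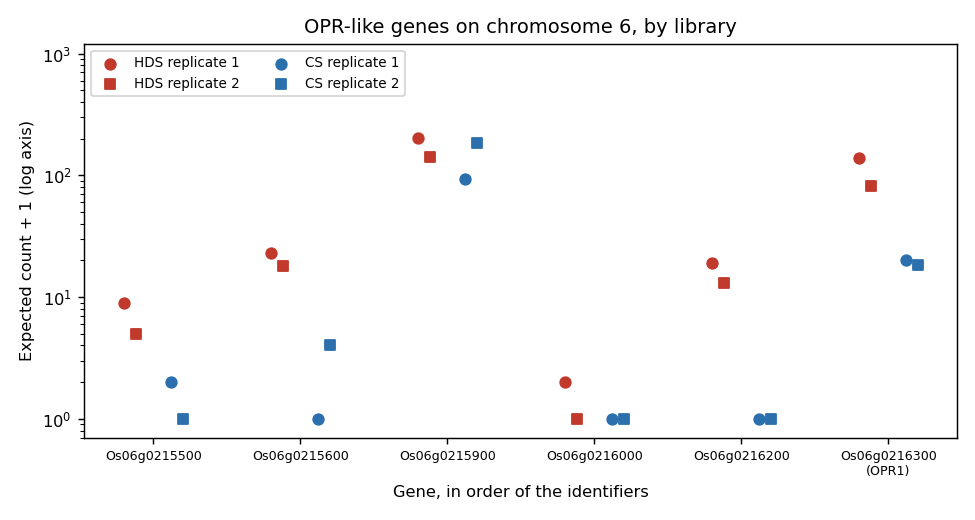
Expected counts plus 1, on a log axis, of the 6 OPR-like genes listed on chromosome 6, in the order of their identifiers; red is HDS, blue is CS, circles are replicate 1 and squares replicate 2. OPR1, Os06g0216200, Os06g0215600 and, at no more than 8 counts, Os06g0215500 lie higher in both HDS libraries. Os06g0215900, the most abundant of the listed neighbours of OPR1, overlaps between treatments.

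JAR1 makes the active conjugate of jasmonic acid with isoleucine. It had 82.4 and 79.7 CPM in HDS plants, against 53.6 and 66.3 CPM in CS plants, or 81.1 ± 1.92 CPM and 59.9 ± 8.99 CPM (SD, n = 2 each). The HDS libraries were alike and both exceeded the CS libraries. The level was 1.35-fold higher, a log2 fold change of 0.43 (standard error 0.16). In edgeR's exact test P was 0.0234, and 0.429 after adjustment over all genes. The adjusted P of edgeR's quasi-likelihood test was 0.426. The value was above 0 whichever library was left out, between 0.29 and 0.58. The call, however, was lost without HDS replicate 1 (0.41), without HDS replicate 2 (0.46) and without CS replicate 1 (0.29).

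**Figure D4:**
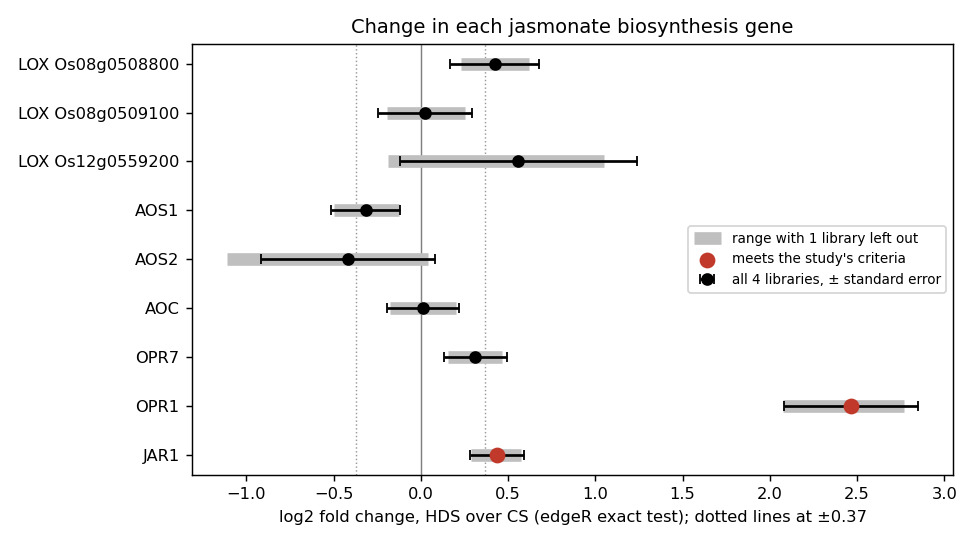
Log2 fold change, HDS over CS, of each of the 9 genes by edgeR's exact test (points) with the standard error from 2 replicates per treatment (bars) and the range with 1 library left out (grey bands); dotted lines mark the limit of 0.37 in either direction. OPR1, at 2.46, is the gene whose grey band lies wholly beyond the limit; the bands of LOX Os08g0509100, LOX Os12g0559200, AOS2 and AOC cross 0.

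The replicates of a treatment differed in the same order in many of these genes. In HDS plants, replicate 1 exceeded replicate 2 for all 9 genes, against 50.4% of all genes kept (11182 of 22184), and 7 of the 9 were lower in CS replicate 1 than in CS replicate 2, against 11093 of the 22184. The exceptions in CS plants were LOX Os12g0559200 and OPR1. The median absolute log2 ratio between replicates was 0.26 in HDS plants and 0.39 in CS plants for the 9 genes, and 0.17 in HDS plants and 0.29 in CS plants for all genes kept. Among 3 listed genes of chlorophyll breakdown and senescence, 2 were higher in HDS plants, against 4.18% of all genes tested. Os09g0532000 had 26.6 and 11.8 CPM in HDS plants, against 1.85 and 2.36 CPM in CS plants (log2 fold change 3.18, adjusted P = 1.5e-08 by edgeR's exact test). Os06g0354700 had 133 and 94.2 CPM in HDS plants, against 66.0 and 90.6 CPM in CS plants (log2 fold change 0.53, adjusted P = 0.514 by edgeR's exact test). The third, Os01g0227100, was not called, at 384 and 389 CPM in HDS plants, against 457 and 429 CPM in CS plants. Of the 5 photosynthesis genes, 4 were lower in HDS plants, against 3.70% of all genes tested, and 2 had an adjusted P under 0.05 by edgeR's exact test. Their summed level stood high in CS replicate 1 alone, at 25704 CPM. It was 15627 CPM in CS replicate 2, between the HDS libraries at 14017 and 16236 CPM. The most abundant of the 5, Os12g0291100, was not called, at 9304 and 11163 CPM in HDS plants, against 12765 and 9149 CPM in CS plants. In the 4 called genes both HDS libraries lay below both CS libraries, against 19.3% of all genes kept. The part of these senescence and photosynthesis genes in the values of the jasmonate genes was not tested.

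The steps around these genes were described with 51 further genes in 8 lists, of which 47 had counts. HDS plants had 9 of these higher and 4 lower (7.88% of all genes tested were called, 4.18% higher and 3.70% lower). The same shares stand against each list below. The 4 higher genes in the list of other OPR-like genes and the LOX gene Os03g0738600 had no more than 3 counts in any CS library. They could hardly have been called lower, so 9 against 4 says little about direction. In edgeR's exact test, 7 of the listed genes had an adjusted P under 0.05, against 2.38% of all genes. In the quasi-likelihood test 0 had one, against 0.699% of all genes kept. There, 10 had an unadjusted P under 0.05, against 9.23%. Os06g0216200 and Os06g0215600 are among both the 7 and the 10. DESeq2 with the criteria of the study called 10, for which no share of all genes was taken. The number of calls fell without HDS replicate 1 and without CS replicate 1, for which no share of all genes was taken either. The median log2 fold change of the 39 genes kept was 0.13.

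Of 3 genes listed for the supply of linolenic acid, 1 was lower. Os07g0693800 had 17.2 and 21.1 CPM in HDS plants, against 50.9 and 20.4 CPM in CS plants, so CS replicate 1 alone stood high. Its log2 fold change of -0.90 became -0.10 without CS replicate 1. Of 10 other LOX genes, 2 were higher, against 4.18% of all genes tested. Of these, Os03g0738600 had 0 counts in CS plants and could hardly have been called lower. LOX1 (Os03g0700700) had 36.1 and 27.1 CPM in HDS plants, against 13.5 and 18.7 CPM in CS plants. It differed by a log2 fold change of 0.97 (standard error 0.31), with an adjusted P of 0.0176 in edgeR's exact test. The call held whichever library was left out, although without HDS replicate 1 the adjusted P was 1. Os03g0738600, also higher, had 4 and 4 counts in HDS plants, against 0 in both CS plants, at least 1.22-fold higher, and lost its call when any library was left out.

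Hydroperoxide lyase competes with AOS for the same hydroperoxides and leads to leaf volatiles. Of 3 genes listed for this branch, Os02g0110200 was lower, with 76.5 and 88.4 CPM in HDS plants, against 158 and 94.9 CPM in CS plants. The log2 fold change of -0.62 was -0.21 without CS replicate 1 and then not called. It was also not called without HDS replicate 1 or HDS replicate 2. Of the 10 other OPR-like genes, 4 were higher (against 4.18% of all genes tested), each with so few CS counts that it could hardly have been called lower. They are the 3 on chromosome 6 given above and Os01g0370000, which had 15 and 5 counts in HDS plants, against 1 and 2 in CS plants. It kept its call only without HDS replicate 2.

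Of 6 genes listed for peroxisomal beta-oxidation, Os02g0274100 was higher, at 198 and 155 CPM in HDS plants, against 106 and 143 CPM in CS plants (log2 fold change 0.51). It lost its call without HDS replicate 1 and without CS replicate 1, where it was 0.30. The other 5 had log2 fold changes between 0.03 and 0.37 and were not called. Neither of the 2 genes listed for conjugation and turnover beside JAR1 was called.

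Of 6 genes listed for signalling, 3 were also measured by the study in lodicules. COI1a (Os01g0853400) and MYC2 (Os10g0575000), the receptor and the transcription factor it sets free, had log2 fold changes of 0.23 and 0.07 and were not called, and MYB8 (Os01g0637800) had 1 count in all. Os11g0684000 was higher, with 29.3 and 16.7 CPM in HDS plants, against 9.51 and 11.8 CPM in CS plants (log2 fold change 1.11, 0.64 and not called without HDS replicate 1). JAZ proteins repress MYC2, and jasmonate itself induces their genes. Among 11 listed JAZ genes, 1 was higher and 2 were lower, against 4.18% higher and 3.70% lower of all genes tested. With a library left out, the log2 fold change lay between 1.05 and 2.09 for Os03g0180900. It lay between -1.99 and -1.20 for Os03g0181100 and between -1.94 and -1.73 for Os10g0391400. Os03g0180900 had 32.7 and 17.0 CPM in HDS plants, against 5.75 and 10.7 CPM in CS plants. Its neighbour Os03g0181100 had 12.1 and 7.01 CPM in HDS plants, against 26.9 and 28.7 CPM in CS plants. The log2 fold changes of these were 1.60 and -1.54, and that of Os10g0391400, at 14 and 12 counts in HDS plants and 36 and 50 counts in CS plants, was -1.83. The adjusted P of edgeR's exact test, under 0.05 for all 3, reached 1 for Os03g0180900 without HDS replicate 1, and 0.105 for Os03g0181100 and 0.873 for Os10g0391400 without HDS replicate 2. By the quasi-likelihood test it was 0.226 for Os03g0180900, 0.0896 for Os03g0181100 and 0.161 for Os10g0391400. The median over the 11 JAZ genes was -0.02.

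**Figure D5:**
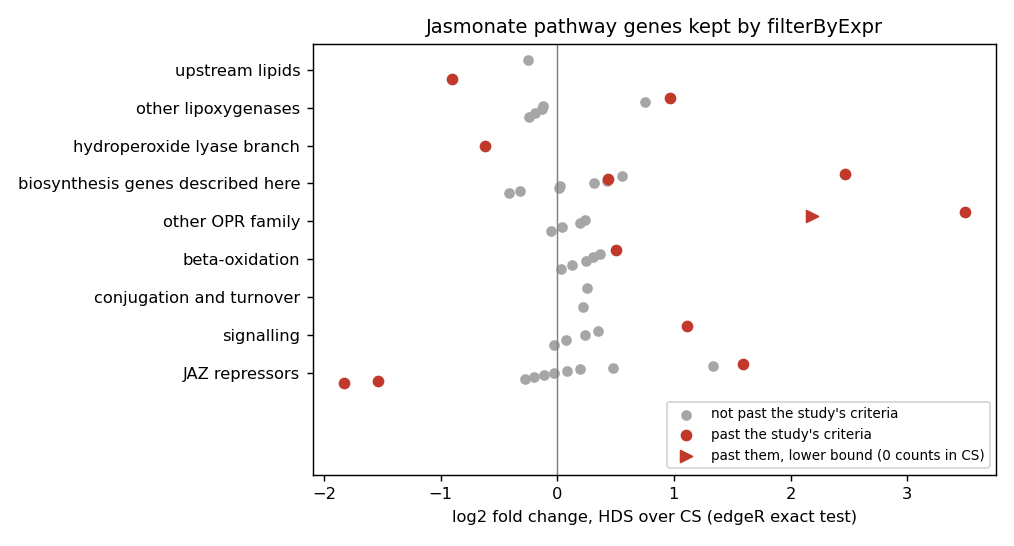
Log2 fold change, HDS over CS, by edgeR's exact test of the jasmonate pathway genes kept by filterByExpr, by list, with the 9 biosynthesis genes in a row of their own; red points meet the criteria of the study, grey points do not, and the triangle is the lower bound of Os06g0216200, which had 0 counts in CS plants. The JAZ list has called genes in both directions, at 1.60, -1.54 and -1.83, and the list for conjugation and turnover has 0.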

How the data were processed

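Leaf RNA of 2 HDS and 2 CS plants was sequenced as paired ends. The labels name a TruSeq stranded kit and the methods of the study a NEBNext directional kit. The submitters' notes name FastQC 0.11.7, Trimmomatic, Bowtie2, RSEM, edgeR 3.26.3 and the build IRGSP-1.0. The authors deposited expected counts from RSEM, which divides reads that fit several genes, for 37858 genes. They were rounded. The study's methods take a single plant as 1 biological replicate. Groups were taken from the labels.

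Genes with at least 1 count (29698) were tested in R 4.3.3 with edgeR 4.0.16, by the exact test with TMM scaling and the criteria of the study, with Benjamini-Hochberg adjustment over all genes tested. The quasi-likelihood test of edgeR took the 22184 genes that filterByExpr kept. Standard errors are from the spread of log2 CPM with a prior count of 2. DESeq2 1.42.0, other scalings, filters, thresholds and prior counts, a replicate block and each library left out were tried. Folds against 0 counts allow 3 counts per library. The exact test and quasi-likelihood test were tested on simulated data. Summing genes that share reads was chosen after seeing the data.

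All 9 genes were named, and of the other lists those meeting the criteria, with the 3 genes closest to AOC in log2 CPM over the libraries. The genes and lists were chosen with earlier results of these data known, and list membership rests on general knowledge of the families, since 0 of 74 identifiers were found in the RefSeq gene table used for names. No annotation of the build was used here, so positions, lengths and sequences are not given, and levels are not compared between genes per length.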

Additional observations from a re-analysis of the deposited data

How the results depend on the processing

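Of the 9 genes, 2 met the criteria of the study, and this became 1 with an adjusted P, 1 with an absolute log2 fold change of at least 1, and between 1 and 4 with a library left out. It was 3 with DESeq2 and 3 with scaling by total counts, where LOX Os08g0508800 was added, and no share of all genes was taken for these. For the 51 other pathway genes the count of 13 became 7 with an adjusted P and between 6 and 16 with a library left out. The 4 other OPR-like genes became 2 under each of filterByExpr before the exact test, the quasi-likelihood test, DESeq2, the quasi-likelihood test with a replicate block and an adjusted P, and between 2 and 3 with a library left out. With adjustment, the quasi-likelihood test called 0 of the 9 genes (2 at an unadjusted P under 0.05), against 1 without a filter on low counts, 1 with the replicate block and between 0 and 2 with a library left out. The cause of these changes was not tested, except that fewer low genes enter a stricter filter.

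The replicate numbers were not shown to pair the plants (Pearson's r of 0.0040 across 22184 genes, which are not independent replicates, for the deviations of same-numbered plants). With the replicate block, 532 genes in place of 155 had an adjusted P under 0.05 by the quasi-likelihood test, and OPR1 had 0.00323 in place of 0.0677. The 4 genes whose log2 fold change turned sign did so with a library left out: LOX Os08g0509100 between -0.19 and 0.25, LOX Os12g0559200 between -0.19 and 1.05, AOS2 between -1.11 and 0.042, and AOC between -0.18 and 0.20. The median log2 fold change of all genes kept was 0.0086 with TMM scaling and 0.076 with scaling by total counts. It was -0.0029 with DESeq2 size factors and 0.00078 with upper quartile scaling. With 2 plants per treatment, differences of the size seen between plants of a treatment could not be told from the treatment.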
